A study of Mus musculus with 6 samples.

Results

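The genes described here are 10 of the 18253 gene symbols listed in at least 1 library: the insulin signaling genes Insr, Irs1, Irs2, Pik3r1, Akt1, Akt2, Foxo1 and Trib1, and Igfbp1 and Igfbp2, which encode binding proteins for insulin-like growth factors. They were chosen by symbol, and all 10 were listed in each of the 6 libraries. The libraries are RNA sequencing profiles of the liver of C57BL/6 mice labelled as postnatal day 21, and they form 2 groups of 3. Mice of the first group were given the hepatotoxicant alpha-naphthyl isothiocyanate (ANIT), a compound toxic to the biliary epithelium that is used to produce cholestasis, and mice of the second received ANIT together with celastrol, a plant triterpenoid. Both groups are labelled with 5 days of treatment, so every library carries the ANIT exposure and no library of untreated liver was analysed here. Whether the libraries are separate animals is not in the labels, so each p-value reflects the spread among the libraries at hand, which may be technical. Feeding state, blood glucose and circulating insulin are not among the labels.

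Insulin binds the receptor encoded by Insr, a tyrosine kinase that phosphorylates the docking proteins Irs1 and Irs2. These recruit phosphoinositide 3-kinase through its regulatory subunit, encoded by Pik3r1, and the lipid it makes activates the kinases Akt1 and Akt2. In hepatocytes Akt phosphorylates the transcription factor Foxo1 and keeps it out of the nucleus, which lowers transcription of Foxo1 targets such as Igfbp1, Irs2 and the gluconeogenic gene G6pc. Igfbp1 and Igfbp2 are secreted by the liver and bind insulin-like growth factors in blood. Trib1 is a pseudokinase that directs the liver transcription factor C/EBP-alpha to degradation.

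Promoter sequence is shown for Igfbp1, Irs2 and Igfbp2, the members with the largest differences between the groups, because FoxO response elements are known from the first of these promoters. RefSeq windows on GRCm38.p6, the assembly of mm10, matched 8 of the 10 members, with 14 start sites between them. The 250 bases before the start are printed on the gene's strand, and for Igfbp2 those of the first of its annotated starts. Letters in capitals mark matches to any of 5 motifs searched on both strands, which were chosen with the windows in view. The motifs were CAAAACA and CAAAATA (the arms of the Igfbp1 insulin response element), GTAAACA (the FoxO consensus), TGACGTCA (the cAMP response element) and CACGTG (the E-box). The printed window of Igfbp1 is chr11:7197537-7197786 on the plus strand, that of Irs2 chr8:11008930-11009179 on the minus strand and that of Igfbp2 chr1:72824230-72824479 on the plus strand. Motif positions count from these RefSeq starts, which differ from the starts in the gene coordinates given below.
Igfbp1: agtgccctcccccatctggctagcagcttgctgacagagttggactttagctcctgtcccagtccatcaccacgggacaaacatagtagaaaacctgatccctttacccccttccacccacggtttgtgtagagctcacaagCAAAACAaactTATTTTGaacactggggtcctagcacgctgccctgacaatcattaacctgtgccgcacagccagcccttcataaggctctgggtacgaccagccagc
Irs2: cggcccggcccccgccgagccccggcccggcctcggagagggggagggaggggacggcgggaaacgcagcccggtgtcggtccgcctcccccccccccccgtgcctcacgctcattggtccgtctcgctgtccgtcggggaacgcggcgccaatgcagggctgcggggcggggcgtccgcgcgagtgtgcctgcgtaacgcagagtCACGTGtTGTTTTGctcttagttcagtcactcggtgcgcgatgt
Igfbp2: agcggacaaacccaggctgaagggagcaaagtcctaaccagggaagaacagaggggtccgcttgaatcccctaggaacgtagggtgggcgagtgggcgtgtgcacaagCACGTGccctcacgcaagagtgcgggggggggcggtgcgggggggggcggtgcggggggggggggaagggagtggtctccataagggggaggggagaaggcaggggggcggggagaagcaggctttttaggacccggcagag

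In the Igfbp1 window CAAAACA and, on the other strand, CAAAATA lie 4 bases apart, and together they form the run CAAAACAAACTTATTTTG from -108 to -91 relative to the start. The run was copied from the Igfbp1 window, so its match there was fixed in advance. It was found in 1 of 32851 mouse windows of this length, that of Igfbp1. That count does not show that such an element is particular to Igfbp1. CAAAACA alone was found in 5.56% of the windows, CAAAATA in 3.95%, GTAAACA in 3.17%, TGACGTCA in 1.55% and CACGTG in 6.02%. The Irs2 window held CAAAACA on the other strand, printed as TGTTTTG, from -37 to -31 and an E-box from -44 to -39. The window of Irs1 also held CAAAACA, at -111 to -105 and at -32 to -26, the former overlapping an E-box at -115 to -110. The Igfbp2 window held an E-box at -142 to -137 and none of the other motifs. Among the remaining members GTAAACA matched a window of Akt1 and CAAAATA a window of Pik3r1. A match describes letters in these windows and does not show binding.

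Levels are given as deposited, in FPKM, a measure corrected for gene length and sequencing depth. The steps between low values put the depth at 18940000 to 19840000 reads with ANIT and 19400000 to 19780000 with celastrol. At that depth the lowest value among the members, Irs2 in ANIT replicate 3, rests on about 125 reads, and every other member on at least 259, with annotated exon lengths. The 6 hepatocyte markers summed to 38489 to 50594 FPKM with ANIT and 12653 to 19174 FPKM with celastrol. Of these Alb fell, and the other 5 did not pass. Cholangiocyte markers were low, at summed levels of 38.9 to 46.2 FPKM with ANIT and 16.2 to 44.7 FPKM with celastrol. Of 3 tested, Krt19 was lower, and Sox9 and Spp1 overlapped between the groups and did not pass. Krt19 reached 1 FPKM only in ANIT libraries (1.38 to 1.53 against 0.17 to 0.78 FPKM). Cftr, at most 0.05 FPKM with ANIT and 0 in the celastrol libraries, was too low to be tested. Of the neutrophil markers, 3 of 4 tested rose, and the summed level of 5 was 30.8 to 54.0 FPKM with ANIT and 64.0 to 88.7 FPKM with celastrol. Kupffer cell markers summed to 60.9 to 138 and 95.9 to 174 FPKM and none of 5 passed, and sinusoidal endothelial markers to 28.8 to 47.9 and 39.4 to 72.7 FPKM, with 1 of 5 (Stab2) higher. The part of these cells in the results on the members was not tested. Celastrol replicate 2 stood apart from the other celastrol libraries. Its 10 most abundant genes took 20.7% of its FPKM sum against 33.2% and 31.5% in replicates 1 and 3. In this it lay within the range of the ANIT libraries (20.3% to 21.9%). Celastrol replicate 2 also held the muscle genes Acta1 and Ckm at 8.48 and 4.17 FPKM, while no other library exceeded 0.07 FPKM for either.

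The comparison asks how celastrol changed these genes in ANIT-injured liver. Insr was higher with celastrol and Igfbp2 was lower, and the other 8 members did not pass. Irs2 was higher in each celastrol library than in any ANIT library without passing, and Igfbp1 was lower in 2 of 3 celastrol libraries. The kinases Akt1 and Akt2 and the regulatory subunit Pik3r1 differed by small amounts. In numbers, 1 member rose and 1 fell among 10 tested with limma on log2(FPKM + 1) at a Benjamini-Hochberg adjusted p of 0.05, where 25.0% of all 10593 tested genes passed, 4.41% higher and 20.6% lower. Groups did not overlap for 5 members (Insr, Irs2, Akt1, Foxo1 and Igfbp2), against 44.9% of all tested genes. Both counts of members lie near these background shares. The median log2 fold change was -0.11 over the members and -0.17 over all genes tested. Median-ratio scaling of the libraries moved the all-gene median to 0.00 and changed the split of calls from 467 higher and 2185 lower to 889 and 1053, so small negative values are to be read against that shift. In bulk liver a smaller number of cells of a type and less RNA per cell cannot be told apart.

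**Figure D1:**
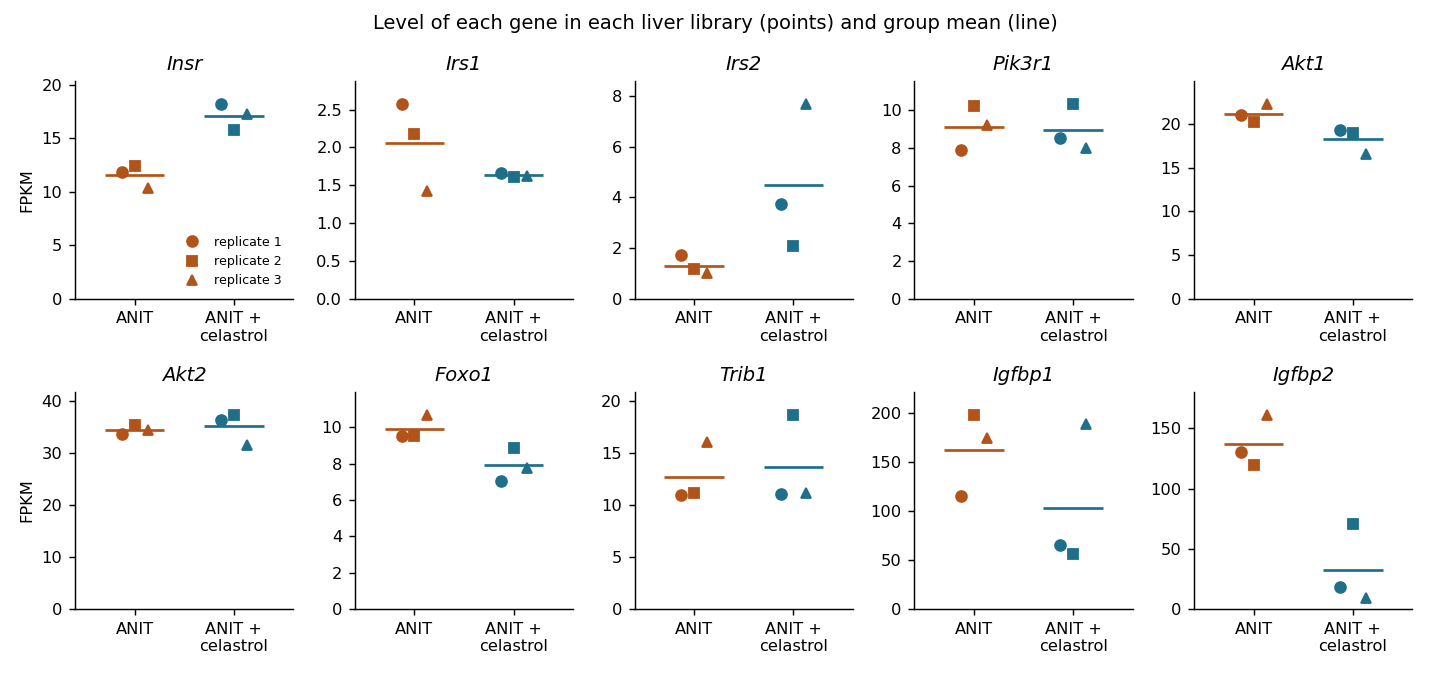
FPKM of the 10 genes (vertical axes, each from 0) in the 3 ANIT and 3 ANIT plus celastrol libraries, with the marker giving the replicate number and the line the group mean. Insr is higher in all celastrol libraries (15.82 to 18.18 against 10.38 to 12.44 FPKM), Igfbp2 is lower in all of them, and Igfbp1 in celastrol replicate 3 lies within the ANIT range.

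Insr (chr8:3122061-3279617, minus strand), the insulin receptor, measured 11.81, 12.44 and 10.38 FPKM in ANIT replicates 1, 2 and 3 and 18.18, 15.82 and 17.25 FPKM in celastrol replicates 1, 2 and 3. The groups did not overlap, and the lowest celastrol library exceeded the highest ANIT library. The mean rose from 11.5 ± 1.06 to 17.1 ± 1.19 FPKM (SD, 3 libraries per group), which is a log2 change of 0.53 (SE 0.11, adjusted p = 0.013, limma). It was positive in each of 14 other settings (0.42 to 0.79) and passed in all but 1 of them, the fit without celastrol replicate 1 (adjusted p = 0.058, limma).

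Irs1 (chr1:82233101-82291416, minus strand), the docking protein best known from muscle and fat but also used in liver, measured 2.57, 2.18 and 1.43 FPKM under ANIT against 1.66, 1.61 and 1.62 FPKM under the combination. The celastrol values lay inside the ANIT range, and the ANIT libraries were the more spread. The log2 fold change was -0.20 (95% interval -0.55 to 0.15, adjusted p = 0.35, limma).

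Irs2 (chr8:10984681-11008458, minus strand), the docking protein whose hepatic transcription Foxo1 raises and insulin lowers, measured 1.71, 1.18 and 1.0 FPKM under ANIT against 3.75, 2.08 and 7.67 FPKM under the combination. Each celastrol library exceeded each ANIT library, and the celastrol libraries themselves differed widely, replicate 3 being the highest and replicate 2 the lowest. The means were 1.30 ± 0.369 and 4.50 ± 2.87 FPKM (SD, n = 3 each), and the log2 fold change was 1.14 (SE 0.36, 95% interval 0.26 to 2.02). It did not pass (adjusted p = 0.064, limma), and its adjusted p ran from 0.012 to 0.17 over 14 other settings. Without celastrol replicate 3 the log2 fold change was 0.75 (adjusted p = 0.061, limma). It passed without celastrol replicate 2 (log2 change 1.49, adjusted p = 0.012 by limma), with a pseudocount of 0.1 (adjusted p = 0.0496, limma) and with non-robust variance (adjusted p = 0.048, limma). The antisense gene 9530052E02Rik overlaps Irs2.

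Within a library the balance between the docking proteins can be read without regard to scaling. The FPKM of Irs2 was 0.665, 0.541 and 0.699 times that of Irs1 under ANIT and 2.26, 1.29 and 4.73 times that of Irs1 under the combination. In FPKM Irs1 was thus the higher of the pair in every ANIT library and Irs2 in every celastrol library. Which gene of a pair is higher depends on the gene lengths behind FPKM, which are not given. The change of a ratio between the groups does not, if the same lengths served every library. The ratio was 3.80-fold higher with celastrol by geometric means (exact two-sided permutation p = 0.1, the smallest that 3 against 3 libraries allow).

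Pik3r1 (chr13:101680563-101768217, minus strand) encodes regulatory subunits that hold and recruit the catalytic subunit of phosphoinositide 3-kinase. It measured 7.90, 10.21 and 9.19 FPKM under ANIT against 8.52, 10.31 and 7.98 FPKM under the combination. The ranges coincided almost entirely. The log2 fold change was -0.02 (95% interval -0.32 to 0.28, adjusted p = 0.91, limma), and it was 0.17 after median-ratio scaling and 0.20 after quantile normalization. A gene model on the same strand, Gm36638, overlaps Pik3r1, and reads of the overlap cannot be assigned with certainty.

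Akt1 (chr12:112653821-112674884, minus strand), a kinase of growth and survival signaling, measured 21.09, 20.25 and 22.28 FPKM under ANIT against 19.33, 19.04 and 16.64 FPKM under the combination. The groups did not overlap, but the gap was small. The log2 fold change was -0.20 (95% interval -0.45 to 0.04, adjusted p = 0.19, limma). After median-ratio scaling it was 0.00 and after quantile normalization 0.08, while rescaled to TPM it was -0.33 (adjusted p = 0.042, limma).

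Akt2 (chr7:27591552-27640826, plus strand), the isoform most tied to the metabolic effects of insulin in liver, measured 33.67, 35.40 and 34.31 FPKM under ANIT against 36.34, 37.23 and 31.55 FPKM under the combination. The celastrol libraries lay on both sides of the ANIT range. The log2 fold change was 0.02 (95% interval -0.24 to 0.28, adjusted p = 0.91, limma), and after quantile normalization it was 0.34 (adjusted p = 0.039, limma). Akt2 had the higher FPKM in each library, at 1.6, 1.75 and 1.54 times that of Akt1 with ANIT and 1.88, 1.96 and 1.90 times with celastrol. These ratios did not overlap between the groups, and the ratio was 1.17-fold higher with celastrol (exact two-sided permutation p = 0.1, the smallest possible).

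**Figure D2:**
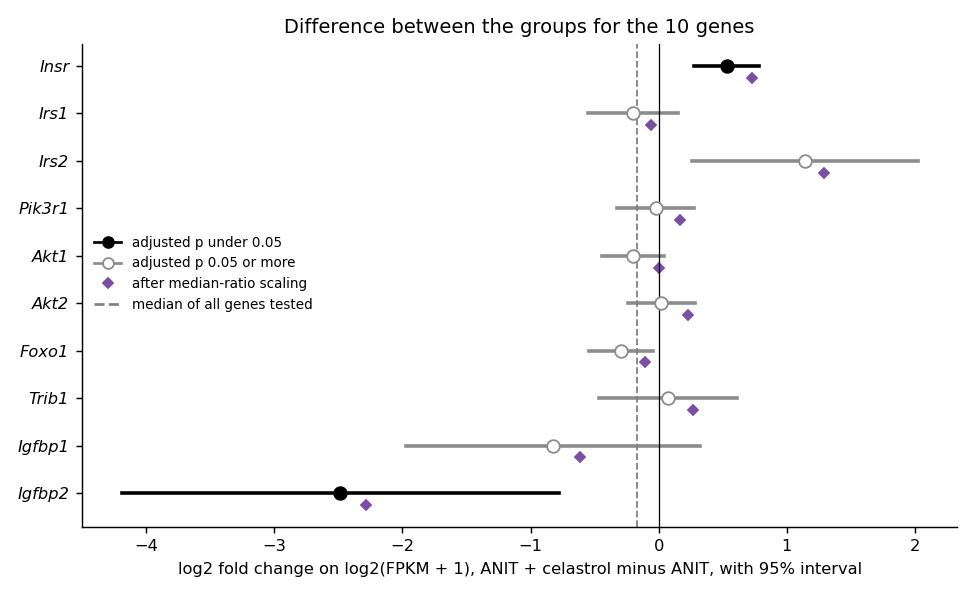
Log2 fold change (horizontal axis, ANIT plus celastrol minus ANIT, on log2(FPKM + 1)) of each gene with its 95% interval from limma, filled where the adjusted p was under 0.05; diamonds give the value after median-ratio scaling and the dashed line the median of all tested genes. Insr (0.53) and Igfbp2 (-2.48) are the filled points, and the intervals of Irs1, Pik3r1, Akt1, Akt2, Trib1 and Igfbp1 include 0.

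Foxo1 (chr3:52268336-52353221, plus strand), the transcription factor that Akt restrains, measured 9.50, 9.51 and 10.66 FPKM under ANIT against 7.07, 8.85 and 7.77 FPKM under the combination. All celastrol libraries lay below all ANIT libraries. The log2 fold change was -0.29 (SE 0.11, 95% interval -0.54 to -0.05) and did not pass (adjusted p = 0.080, limma). It passed rescaled to TPM (log2 change -0.43, adjusted p = 0.024 by limma) and without celastrol replicate 2 (-0.37, adjusted p = 0.028, limma), and after median-ratio scaling it was -0.10 (adjusted p = 0.47, limma). The gene model Gm38034 overlaps Foxo1 on the same strand.

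Trib1 (chr15:59648350-59657099, plus strand), the pseudokinase, measured 10.96, 11.16 and 16.03 FPKM under ANIT against 11.03, 18.64 and 11.18 FPKM under the combination. In each group 2 libraries lay near 11 FPKM and 1 library was higher. The log2 fold change was 0.07 (95% interval -0.46 to 0.61, adjusted p = 0.84, limma), and it was below 0 rescaled to TPM (-0.05) and without ANIT replicate 1 (-0.02), ANIT replicate 2 (-0.0048) or celastrol replicate 2 (-0.16).

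Igfbp1 (chr11:7197782-7202546, plus strand), the binding protein that insulin represses in hepatocytes, measured 115.0, 197.8 and 174.1 FPKM under ANIT against 66.0, 56.16 and 188.2 FPKM under the combination. Celastrol replicates 1 and 2 lay below every ANIT library, while replicate 3 lay within the ANIT range. The means were 162 ± 42.6 and 103 ± 73.6 FPKM (SD, 3 libraries per group), and the fitted log2 change was -0.83 (SE 0.48, 95% interval -1.97 to 0.32, adjusted p = 0.24, limma). Without celastrol replicate 3 the log2 fold change was -1.36 and passed (adjusted p = 0.014, limma), while without celastrol replicate 2 it was -0.50 (adjusted p = 0.45, limma). Over the 13 settings other than the first of these the adjusted p ran from 0.16 to 0.51.

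Igfbp2 (chr1:72824503-72852474, plus strand), a second hepatic binding protein for insulin-like growth factors, measured 130.4, 119.9 and 161.0 FPKM under ANIT against 18.24, 71.12 and 9.58 FPKM under the combination. Every celastrol library lay below every ANIT library, and celastrol replicate 2 lay closest to them. The mean fell from 137 ± 21.3 to 33.0 ± 33.3 FPKM (SD, 3 libraries per group), 4.16-fold lower by the means, and the fitted log2 change was -2.48 (SE 0.69, 95% interval -4.19 to -0.78, adjusted p = 0.049, limma). The direction held in each of 14 other settings (-3.26 to -1.88), but the call was lost in 9 of them, among them the fit without a filter (adjusted p = 0.074, limma), median-ratio scaling (adjusted p = 0.0501, limma), and the fits that dropped ANIT replicate 1, 2 or 3 or celastrol 1 or 3 (limma adjusted p of 0.15, 0.13, 0.13, 0.13 and 0.095). Without celastrol replicate 2 the log2 fold change was -3.26 (adjusted p = 0.0015, limma).

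The FPKM of Igfbp1 was 0.882, 1.65 and 1.08 times that of Igfbp2 under ANIT and 3.62, 0.790 and 19.6 times under the combination. The binding proteins were thus near parity in FPKM with ANIT. With celastrol the ratio ranged widely and overlapped the ANIT values (log2 difference 1.72, exact two-sided permutation p = 0.4). The log2 difference was 2.86 without celastrol replicate 2, with no overlap (exact two-sided permutation p = 0.1, the smallest possible), and 0.54 without celastrol replicate 3 (exact two-sided permutation p = 0.7). Among celastrol libraries replicate 3 had the highest Igfbp1, the highest Irs2 and the lowest Igfbp2, and replicate 2 had the lowest Igfbp1, the lowest Irs2 and the highest Igfbp2.

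**Figure D3:**
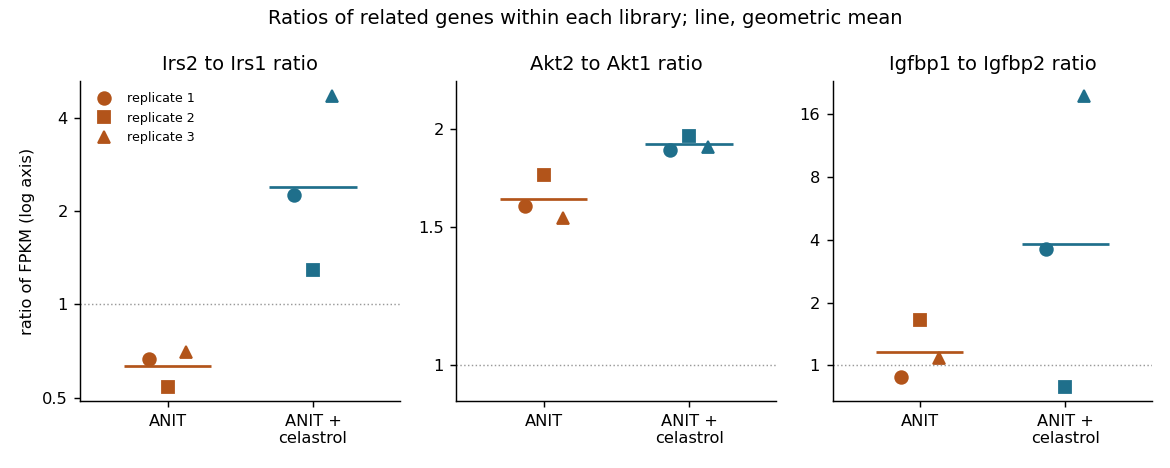
Ratio of FPKM within each library (vertical log axes) for Irs2 to Irs1, Akt2 to Akt1 and Igfbp1 to Igfbp2, by group, with lines at the geometric means. The Irs2 to Irs1 ratio lies below 1 in all ANIT libraries (0.541 to 0.699) and above 1 in all celastrol libraries (1.29 to 4.73), while the Igfbp1 to Igfbp2 ratio overlaps between the groups.

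Ordered by mean FPKM, which is per length, the ANIT libraries ran from Igfbp1 and Igfbp2, whose ranges overlapped, through Akt2 and Akt1, each clear of its neighbours, to Trib1, Insr, Foxo1 and Pik3r1, whose neighbouring ranges overlapped, and then Irs1 and Irs2, which overlapped. With celastrol the range of Igfbp2 (mean 33.0 FPKM) overlapped that of Akt2 (35.0 FPKM), and Insr (17.1 FPKM) overlapped Akt1 (18.3 FPKM). Irs1 (1.63 FPKM) was the lowest member with celastrol, and its range did not reach that of Irs2.

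The genes whose profiles were most like that of Igfbp2 across the 6 libraries were Slc2a2, Slco1a4 and Akr1c19, with largest differences of 0.44, 0.55 and 0.60 in mean-centred log2(FPKM + 1) in any library. Slc2a2, which encodes the glucose transporter GLUT2, measured 70.4, 78.56 and 66.18 FPKM under ANIT against 8.68, 38.81 and 7.07 FPKM under the combination (log2 change -2.31, adjusted p = 0.042 by limma). As with Igfbp2, celastrol replicate 2 was the celastrol library nearest to the ANIT values. Those most like Irs2 were Fam222a, Acnat2 and Fgb, with largest differences of 0.28, 0.38 and 0.39. Fgb, which encodes the fibrinogen beta chain, measured 5559, 4278 and 3657 FPKM under ANIT against 12196, 6983 and 13341 FPKM under the combination (log2 change 1.24, adjusted p = 0.021 by limma). The nearest profiles were picked from 10593 tested genes for this likeness and serve as a description.

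Around the members, 73 other genes of the pathway were followed in 10 lists from textbook knowledge. Of these 72 were listed and 59 passed the filter of 1 FPKM in at least 3 libraries. With celastrol 1 rose, 17 fell and 41 did not pass, or 30.5% called beside 25.0% of all genes, and their median log2 fold change was -0.19 beside -0.17. Under median-ratio scaling the count was 3 higher and 10 lower. Dropping ANIT replicate 1, 2 or 3 gave 11, 9 or 16 calls in place of 18, and dropping celastrol replicate 1, 2 or 3 gave 9, 23 or 13.

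Of 8 tested receptors and docking proteins 1 fell, beside 20.6% of all tested genes. It was Igf2r, the receptor that clears insulin-like growth factor 2 and sorts lysosomal enzymes. It measured 6.46, 7.41 and 5.62 FPKM under ANIT against 3.74, 4.25 and 3.77 FPKM under the combination (log2 change -0.60, adjusted p = 0.010 by limma), and its groups did not overlap. The antisense gene Airn overlaps Igf2r. Igf1r, the receptor for insulin-like growth factor 1, stayed at or below 0.34 FPKM in every library, under the filter. Grb14, an adaptor that inhibits the insulin receptor in liver, measured 22.02, 21.63 and 19.78 FPKM under ANIT against 15.62, 24.66 and 13.99 FPKM under the combination and did not pass (adjusted p = 0.37, limma), though it passed as lower without celastrol replicate 2. None of the 7 tested genes of phosphoinositide 3-kinase and its opposing phosphatases passed with limma, beside 25.0% of all tested genes. Of the 7, 1 had an unadjusted limma p under 0.05, beside 4284 of all 10593 tested genes. Pik3cd, a catalytic subunit most abundant in white blood cells, was higher and passed under median-ratio scaling, after removal of the top 20 genes and without ANIT replicate 3. Without celastrol replicate 2, Pik3r2, another regulatory subunit, and Sos2, an exchange factor for Ras, passed as lower. In that fit 3334 of all 10433 tested genes did. Pik3r2 and Sos2 also passed as lower when rescaled to TPM, where 3813 of 10593 genes did. Sos2 did so as well with replicate numbers fitted as blocks.

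The widest change among regulators of Akt was that of Trib3, a pseudokinase relative of Trib1 that binds Akt. It measured 8.84, 19.54 and 13.34 FPKM under ANIT against 2.09, 2.90 and 2.27 FPKM under the combination, and the groups lay far apart. The mean fell from 13.9 ± 5.37 to 2.42 ± 0.425 FPKM (SD, 3 libraries per group), which is a log2 change of -2.07 (SE 0.26, adjusted p = 0.0030, limma), and the call held in all 14 other settings. In the same list Ppp2cb, a catalytic subunit of protein phosphatase 2A, and Phlpp1, an Akt phosphatase, fell by 0.60 and 0.42 on the log2 scale (limma adjusted p of 0.013 and 0.029). Thus 3 of 4 tested genes of the list fell, beside 20.6% of all tested genes. The Phlpp1 call was lost without the filter, under median-ratio scaling, after quantile normalization, after removal of the top 20 genes, and in the fits lacking ANIT replicate 1, ANIT replicate 2, celastrol replicate 1 or celastrol replicate 3. Ppp2cb did not pass after quantile normalization or in the fit lacking celastrol replicate 1.

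Of 12 tested genes of the mTOR complexes and their regulators 5 fell and none rose, beside 20.6% lower and 4.41% higher among all tested genes. Mtor, the kinase itself, measured 7.70, 7.72 and 6.39 FPKM under ANIT against 3.55, 4.0 and 3.46 FPKM under the combination, with no overlap (log2 change -0.82, SE 0.11, adjusted p = 0.0025 by limma), and it passed in all 14 other settings. Rheb, the GTPase that activates mTOR complex 1, fell by 0.50 on the log2 scale (adjusted p = 0.013, limma). Rptor, the scaffold of that complex, Mapkap1, a subunit of complex 2, and Tsc2, which inactivates Rheb, fell by 0.44, 0.38 and 0.34 (limma adjusted p of 0.029, 0.021 and 0.029). Under median-ratio scaling Mtor and Rheb passed, and after quantile normalization Mtor did. In place of 5 calls there were 2, 1 and 4 when ANIT replicates 1, 2 and 3 were dropped in turn, and 1, 5 and 2 when celastrol replicates 1, 2 and 3 were dropped in turn. Neither of the 2 tested FoxO relatives passed, beside 25.0% of all tested genes. Of the 2, 1 had an unadjusted limma p under 0.05, beside 4284 of all 10593 tested genes. Foxo3 measured 4.6, 4.09 and 4.93 FPKM under ANIT against 2.05, 3.72 and 3.10 FPKM under the combination (adjusted p = 0.059, limma), and it passed as lower without celastrol replicate 2 and when rescaled to TPM. Foxo4 measured 5.84, 7.82 and 6.59 FPKM under ANIT against 7.74, 9.93 and 7.85 FPKM under the combination (log2 change 0.29, adjusted p = 0.14 by limma), and it passed as higher under median-ratio scaling and quantile normalization.

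In the glycogen arm 2 of 5 genes fell, beside 20.6% of all tested genes. The 2 were Ppp1r3b, which targets a phosphatase to glycogen in liver, and Gsk3a, a glycogen synthase kinase. Ppp1r3b measured 39.11, 59.70 and 49.49 FPKM under ANIT against 23.49, 26.62 and 35.10 FPKM under the combination (log2 change -0.78, adjusted p = 0.027 by limma), and Gsk3a had a log2 fold change of -0.38 (adjusted p = 0.048, limma). No gene of this list passed without the filter, under median-ratio scaling, after quantile normalization, or without ANIT replicate 2 or celastrol replicate 1. Without ANIT replicate 3 both calls were lost, and Gsk3b, another glycogen synthase kinase, passed as lower. Gsk3a also lost its call with replicate numbers fitted as blocks and without ANIT replicate 1 or celastrol replicate 3. Ppp1r3b also lost its call after removal of the top 20 genes and without celastrol replicate 2. In the latter fit Gsk3a and the glycogen synthase gene Gys2 passed as lower. None of the 4 tested receptor phosphatases and Socs proteins passed, beside 25.0% of all tested genes. Of the 4, 1 had an unadjusted limma p under 0.05, beside 4284 of all 10593 tested genes. Socs3, a feedback inhibitor of cytokine and insulin receptors, measured 13.65, 12.62 and 17.37 FPKM under ANIT against 42.94, 22.54 and 16.97 FPKM under the combination (adjusted p = 0.12, limma).

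None of the 4 other tested binding protein genes passed, beside 25.0% of all tested genes. Of the 4, 0 had an unadjusted limma p under 0.05, beside 4284 of all 10593 tested genes. Without celastrol replicate 3 Igfbp7 passed as higher. Igfbp4 was the most abundant of the family, at 627 to 678 FPKM with ANIT and 529 to 645 FPKM with celastrol (adjusted p = 0.34, limma). Together Igfbp1 to Igfbp7 summed to 976 ± 57.6 FPKM with ANIT and 741 ± 83.7 FPKM with celastrol (SD, n = 3 each, exact two-sided permutation p = 0.1, the smallest possible). Igfbp2 made up 14.1%, 12.4% and 15.5% of that sum under ANIT, against 2.78%, 8.64% and 1.29% under the combination. Igfbp3, Igfbp7 and Igfals were each lowest in celastrol replicate 3 among the celastrol libraries (2.75, 13.95 and 15.25 FPKM). They measured 8.78, 30.96 and 22.69 FPKM in replicate 1 and 9.52, 40.17 and 49.64 FPKM in replicate 2. Igfbp3 and Igfbp7 are made mainly by non-parenchymal liver cells. In celastrol replicates 1, 2 and 3 the sinusoidal endothelial markers summed to 55.4, 72.7 and 39.4 FPKM. The stellate cell and fibroblast markers summed to 50.7, 46.3 and 14.3 FPKM in the same order. The part of these cells in the binding protein values was not tested.

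Genes that insulin represses through Foxo1 moved in both directions, with 1 of 7 tested higher and 2 lower. Among all tested genes 4.41% were higher and 20.6% lower. G6pc, the catalytic subunit of glucose 6-phosphatase, measured 5.75, 4.35 and 2.94 FPKM under ANIT against 24.31, 30.68 and 68.88 FPKM under the combination (log2 change 2.87, adjusted p = 0.0062 by limma). Among the celastrol libraries G6pc was highest in replicate 3, as were Irs2 and Igfbp1. The full order was not shared, as G6pc was lowest in replicate 1 and Irs2 and Igfbp1 in replicate 2. Pck1, the gluconeogenic carboxykinase, measured 910.1, 1326 and 1401 FPKM under ANIT against 1033, 1379 and 1787 FPKM under the combination and did not pass (adjusted p = 0.60, limma). Pdk4, which restrains pyruvate oxidation, measured 3.78, 2.87 and 2.25 FPKM under ANIT against 0.80, 0.72 and 1.28 FPKM under the combination (log2 change -1.03, adjusted p = 0.0069 by limma), so that G6pc and Pdk4 lay on opposite sides of 0. Mttp, which loads lipid onto lipoproteins, had a log2 fold change of -0.48 (adjusted p = 0.0499, limma). Among the 14 other settings Mttp passed only with non-robust variance, when rescaled to TPM and without ANIT replicate 3. Ppargc1a, a coactivator of gluconeogenic genes, passed as lower without celastrol replicate 2 and when rescaled to TPM.

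Of 6 genes that insulin induces, 4 fell and none rose, beside 20.6% lower and 4.41% higher among all tested genes. The 4 were the lipogenic genes Fasn, Acaca, Acly and Pnpla3, with log2 fold changes of -2.89, -1.25, -1.72 and -1.65 (limma adjusted p of 0.0020, 0.0095, 0.00083 and 0.0017). Pnpla3 met the filter only through its ANIT libraries (1.96, 3.82 and 2.20 FPKM against 0.07, 0.17 and 0.17 FPKM under the combination). When any ANIT library was left out Pnpla3 was not tested, and 3 of 5 tested genes (Fasn, Acaca and Acly) fell. Srebf1, the transcription factor of lipogenesis, measured 12.97, 21.03 and 22.03 FPKM under ANIT against 14.17, 27.54 and 14.94 FPKM under the combination (log2 change -0.01, adjusted p = 0.98 by limma).

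**Figure D4:**
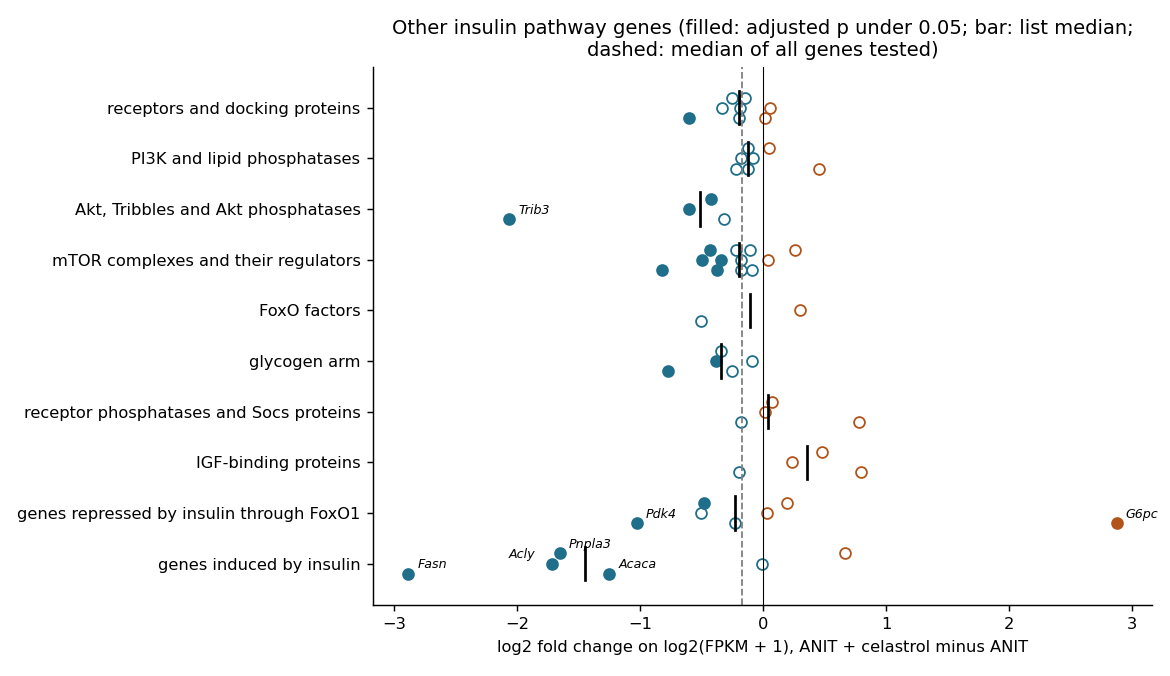
Log2 fold change (horizontal axis, on log2(FPKM + 1)) of the 59 tested genes in the 10 other pathway lists (rows), filled where the limma adjusted p was under 0.05, with the list median as a bar and the median of all tested genes (-0.17) dashed. The genes induced by insulin have the lowest list median (-1.45, with Pnpla3 included, which met the filter only through its ANIT libraries). G6pc (2.87) is the filled point above 0, and Trib3 (-2.07) stands apart in its list.

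The count of members called moved with single libraries, as did that of all tested genes. Of the 10 members 1 passed without any 1 of the ANIT libraries (Insr each time) and 0 without celastrol replicate 1. There were 4 without celastrol replicate 2 (Insr and Irs2 higher, Foxo1 and Igfbp2 lower) and 2 without celastrol replicate 3 (Insr higher and Igfbp1 lower). Without ANIT replicates 1, 2 and 3 in turn, 1485 of 10403, 1166 of 10391 and 1744 of 10407 tested genes passed. Without celastrol replicates 1, 2 and 3 in turn, 1117 of 10457, 3810 of 10433 and 1677 of 10483 did.

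**Figure D5:**
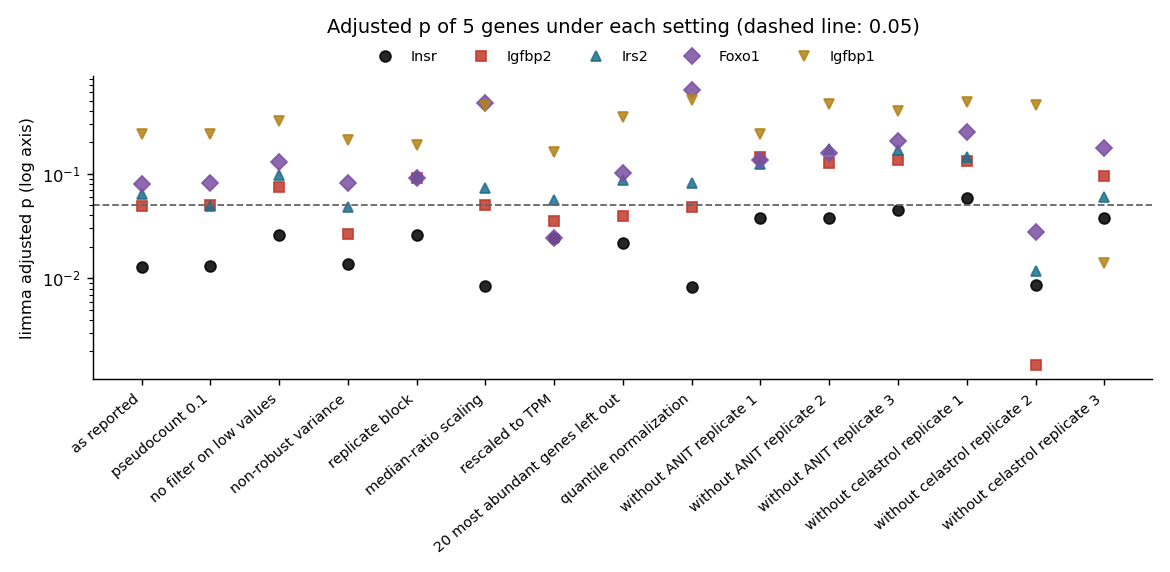
Limma adjusted p (vertical log axis) of Insr, Igfbp2, Irs2, Foxo1 and Igfbp1 as reported and under 14 other settings (horizontal axis), with the threshold of 0.05 dashed. Insr stays below the line except without celastrol replicate 1 (0.058), and without celastrol replicate 2 Insr, Igfbp2, Irs2 and Foxo1 all lie below it.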

How the data were processed

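RNA of flash-frozen mouse liver was profiled in 3 ANIT and 3 ANIT plus celastrol libraries, grouped and numbered by their titles. Each deposited file pairs gene symbols with FPKM, per the file headers. The submitters' processing notes name HISAT2, featureCounts and mm10. Not given in the sources used here were tool versions, annotation, strand handling and the gene lengths behind FPKM. Values of overlapping and antisense genes are therefore uncertain. A symbol not listed was set to 0, and 4 rows a library whose date-like names were repeated were dropped.

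Genes reaching 1 FPKM in 3 or more libraries entered a limma fit (version 3.58.1, R 4.3.3) of log2(FPKM + 1) (empirical Bayes trend, robust variance, group as the single term), with Benjamini-Hochberg adjustment over all 10593 genes and a threshold of 0.05. Such fold changes understate those of genes near 1 FPKM. The fit was tested on simulated data. Ratios used exact permutation tests. FPKM gives no read totals, so depth was estimated from low-value spacing, and count models were not used.

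Members and lists were chosen with earlier results of these data known. All members were named whatever their values, and of the other lists any gene that passed, or any of a list of up to 8 genes, could be named. The values of 1 gene of the lists are not reported here. Grb14, Igf1r, Pik3cd, Pik3r2 and Sos2 were named after their values were seen. The 3 nearest profiles were named for the 2 members with the largest absolute log2 fold change. Coordinates are from GENCODE release M21 on mm10, and promoters from RefSeq on GRCm38.p6.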

Additional observations from a re-analysis of the deposited data

How the results depend on the processing

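Over 14 other settings Insr stayed higher and Igfbp2, Foxo1, Irs1 and Igfbp1 stayed lower, and Irs2 stayed higher. Of all genes, 2652 passed, and 4202 when rescaled to TPM (389 higher, 3813 lower), with a range of 1117 to 3810 when 1 library was left out. After quantile normalization 864 were higher and 964 lower. Members called numbered 2, and 1 without the filter, 1 with median-ratio scaling, 4 rescaled to TPM, and 0 to 4 when 1 library was left out. Other pathway genes called numbered 18, and 10 after quantile normalization, with a range of 9 to 23 when 1 library was left out.

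Signs changed for members with small differences. Pik3r1 (-0.02) was 0.17 with median-ratio scaling, 0.20 after quantile normalization, 0.042 when the top 20 genes were removed and -0.12 to 0.054 when 1 library was left out. Akt1 (-0.20) was 0.00097 with median-ratio scaling and 0.083 after quantile normalization. Akt2 (0.02) was -0.10 rescaled to TPM and -0.024 to 0.092 when 1 library was left out. Trib1 (0.07) was -0.047 rescaled to TPM and -0.16 to 0.24 when 1 library was left out. The cause was not tested.

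The labels give the groups the same replicate numbers. Deviations of same-numbered libraries correlated at 0.15, 0.23 and -0.09, so the numbers were not taken as pairs. With the replicate block 1 member passed (Insr, limma adjusted p = 0.026), Igfbp2 had a limma adjusted p of 0.090, and 2585 genes passed. By construction the ratios have the same mean differences when libraries are paired by number (1.93 for Irs2 to Irs1, 0.23 for Akt2 to Akt1 and 1.72 for Igfbp1 to Igfbp2 on the log2 scale), with sign-flip permutation p of 0.25, 0.25 and 0.5, where 0.25 is the smallest possible. Depth limits Irs2 most, with about 125 reads in its lowest library.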
